A study of Mus musculus with 12 samples.

Results

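The mRNA of 10 small leucine-rich proteoglycan genes, Dcn, Bgn, Fmod, Lum, Prelp, Omd, Ogn, Epyc, Aspn and Chad, was measured in cells taken from the superficial zone (SFZ) and the deep zone (DZ) of newborn mouse cartilage. The genes were taken by symbol from a table of 17536 genes, all 10 were found, and each appeared on 1 row. The 12 RNA-seq libraries came from 5-day-old mice, C57BL/6 in the labels and C57BL/6J in the methods, and fell into 4 groups of 3. R3-Cntl mice carried Runx3 fl/fl alone, and R3-cKO mice carried Col2a1-Cre with Runx3 fl/fl, in which Cre is driven by Col2a1 regulatory sequence and so acts in cells of the chondrocyte lineage. Every group therefore carried the floxed allele, and no group was wild type. The zones were separated by enzymes alone: leg cartilage cleaned of tendon and ligament gave up its SFZ cells first, to trypsin and collagenase, and the DZ cells came out of the leftover tissue in a second collagenase step. The values are those of plated cells, since the study's methods name monolayer culture on fibronectin. The culture time is not given in the sources used here. The study asked which genes depend on Runx3, a transcription factor of the Runt family, in either zone, and the design also compares the zones.

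Values were read as FPKM, a unit inferred from the values, that is fragments scaled to transcript length and to the size of the library, so levels of different genes can be set side by side. From the size of the smallest values the libraries held an estimated 23900000 to 26900000 fragments each. The summed FPKM of 11 chondrocyte markers was 4440 to 13691 in SFZ and 14706 to 33282 in DZ libraries. Prg4, the lubricin gene that defines SFZ cells, was at 2.13 to 22.24 FPKM in SFZ and 1.22 to 5.72 FPKM in DZ libraries, and the 8 superficial zone markers together summed to 276 to 862 FPKM and 76.1 to 280.0 FPKM. Of the 6 that passed the filter in both zones, Abi3bp (124.3 to 599 against 6.89 to 75.47 FPKM) was called lower in DZ over both genotypes. The other 5 were not called in that comparison, with Tnfrsf11b at 17.72 to 86.98 FPKM in SFZ and 30.84 to 231 FPKM in DZ. Within R3-Cntl, Prg4 was called lower in DZ (-2.36 on the log2 scale, SE 0.38, limma adjusted p = 0.0485). Its R3-Cntl levels were 7.13 to 22.24 FPKM in SFZ and 1.22 to 1.47 FPKM in DZ. Within R3-cKO it differed by -0.27 (SE 0.51, adjusted p = 0.88). Markers of prehypertrophic and hypertrophic chondrocytes summed to 366 to 799 FPKM in SFZ and 778 to 1316 FPKM in DZ. Of the 9 tested over both genotypes, Pth1r was called higher in DZ (1.1, adjusted p = 0.00109 in limma). Runx2 was called lower (-0.44, adjusted p = 0.0107), and the others, Col10a1 among them, were not called. Markers of fibroblasts and synovium summed to 2444 to 6974 FPKM in SFZ and 98.3 to 1319 FPKM in DZ libraries, and R3-cKO SFZ 3 and R3-Cntl SFZ 2 stood apart from the other 4 SFZ libraries with 6974 and 5330 FPKM. In these libraries the fibroblast sum exceeded the chondrocyte sum, 4996 and 4440 FPKM, and in the other 10 libraries the chondrocyte sum was higher. That order rests on Col1a1, without which the fibroblast sums were 2181 and 1624 FPKM, still the highest of the 12 libraries but below the chondrocyte sums. Runx3 itself measured 5.98 to 10.73 FPKM in R3-Cntl and 3.42 to 11.83 FPKM in R3-cKO SFZ libraries, and 7.66 to 12.67 FPKM against 8.14 to 15.95 FPKM in DZ. The level of the targeted gene thus did not separate the genotypes, and below R3-cKO means the libraries labelled R3-cKO. The deleted stretch of the gene is not given in the sources used here, so the level of the whole transcript does not check the deletion.

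Small leucine-rich proteoglycans are secreted proteins with a curved array of leucine-rich repeats, and most of them bind collagen. They sit on collagen fibrils, govern how thick the fibrils grow and how they are spaced, and several also bind growth factors such as TGF-β. Class I holds decorin (Dcn), biglycan (Bgn) and asporin (Aspn), and the first pair carry chondroitin or dermatan sulfate chains, which asporin lacks. Class II holds fibromodulin (Fmod), lumican (Lum), prolargin (Prelp) and osteomodulin (Omd), several of which carry keratan sulfate chains or sulfated tyrosines. Class III holds epiphycan (Epyc), known from epiphyseal cartilage, and osteoglycin (Ogn), and class IV holds chondroadherin (Chad), which binds collagen and integrins. In joints, asporin is best known from perichondrium, ligament and degenerating cartilage.

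Of these genes, 8 lie beside other family members. In the mm9 build with GENCODE vM1 annotation, chromosome 10 carries Dcn, Lum, Kera and Epyc, all on the + strand, within 202844 bases at chr10:96942245-97145088. Chromosome 13 carries Ecm2, Aspn, Omd and Ogn on the + strand within 119691 bases at chr13:49600179-49719869. Chromosome 1 carries Optc, Prelp and Fmod within 151082 bases at chr1:135793773-135944854, with Fmod on the + strand and the other two on the - strand. Bgn lies alone on the X chromosome at chrX:70728941-70741272 and Chad on chromosome 11 at chr11:94426361-94430441. Aspn, Omd and Ogn lie inside the span of Cenpp, and Chad inside that of Acsf2, both on the opposite strand. The span of Epyc holds Gm10754 at chr10:97144736-97145050, also on the opposite strand, and no FPKM value is given here for Gm10754. Whether counting used the strand is not given in the sources used here. Cenpp was at 1.03 to 8.73 FPKM and Acsf2 at 4.5 to 10.55 FPKM. Reads of Cenpp could touch the lowest values of Aspn. Chad was at 4.42 to 41.57 FPKM, so reads of Acsf2 could touch more than its lowest values.

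The 300 bases before an annotated start are shown for Aspn and Epyc, because these were the members whose SFZ and DZ ranges did not overlap. Both stretches are poor in G and C, with 30.7% for Aspn and 29.7% for Epyc, against 33.7 to 62.7% for the other 8 genes. For Epyc the start is that of transcript Epyc-001 at base 97109723, which lies 3021 bases inside the gene as annotated, because another transcript, Epyc-002, begins at base 97106702. The 300 bases before that first start held 39% G and C and also 1 ACAAAG. For Bgn the start used, that of Bgn-001, lay 42 bases inside the gene, and for the other 8 genes it was the first one annotated. Capitals mark ACAAAG, a short form of the site that SOX proteins bind, searched on both strands. It was found before Aspn, Epyc and Lum, and before 18.3% of 22367 coding genes.
Aspn, chr13:49639512-49639811, + strand: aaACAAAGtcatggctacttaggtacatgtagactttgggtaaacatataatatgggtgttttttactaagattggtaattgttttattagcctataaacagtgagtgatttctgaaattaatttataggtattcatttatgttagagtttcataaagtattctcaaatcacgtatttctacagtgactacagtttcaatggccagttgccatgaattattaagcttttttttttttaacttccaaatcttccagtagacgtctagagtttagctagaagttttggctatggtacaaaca
Epyc, chr10:97109423-97109722, + strand: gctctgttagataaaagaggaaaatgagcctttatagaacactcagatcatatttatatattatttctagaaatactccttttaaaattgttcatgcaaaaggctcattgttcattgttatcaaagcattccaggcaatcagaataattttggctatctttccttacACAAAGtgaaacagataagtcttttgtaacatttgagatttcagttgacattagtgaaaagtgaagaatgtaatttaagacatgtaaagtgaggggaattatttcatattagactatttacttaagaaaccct

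Runx proteins share the letters TGTGGT or TGCGGT, and 4 of the 10 genes held them on either strand in the same 300 bases, namely Fmod, Lum, Ogn and Chad, once each. Of all 22367 coding genes, 21% did. The 60 bases around each match are shown because Runx3 was the factor targeted, with the matched letters in capitals.
Fmod, chr1:135933766-135933825, + strand: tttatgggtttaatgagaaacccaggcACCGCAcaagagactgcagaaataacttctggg
Lum, chr10:97028075-97028134, + strand: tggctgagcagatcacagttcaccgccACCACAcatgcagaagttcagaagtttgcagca
Ogn, chr13:49703292-49703351, + strand: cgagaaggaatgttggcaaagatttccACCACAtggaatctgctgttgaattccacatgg
Chad, chr11:94426289-94426348, + strand: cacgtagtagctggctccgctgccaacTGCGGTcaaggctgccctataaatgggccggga
The matches lay 38 to 33 bases before the start of Fmod, 33 to 28 before Lum, 121 to 116 before Ogn and 45 to 40 before Chad. In Fmod, Lum and Ogn the letters read on the opposite strand. TATAAA, searched on both strands, was found before Chad once, 28 to 23 bases before its start, and before Ogn, Epyc and Aspn 2 times each, the nearest of these 178 to 173 bases before the start of Aspn. It was found before 14.5% of coding genes in the same 300 bases. A match of letters is a description of the sequence, and binding was not analysed here.

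Biglycan was the most abundant of the 10 genes in every library, and fibromodulin came next in 11 of 12. The exception was R3-cKO SFZ 3, where Ogn (1344.9 FPKM) exceeded Fmod (1293 FPKM). In SFZ libraries Bgn held 32.8 to 44.1% and Fmod 20.7 to 31.2% of the summed FPKM of the 10 genes, and in DZ libraries they held 27.5 to 40.8% and 17.6 to 29.5%. The sum of the 10 genes was 2645 to 5983 FPKM in SFZ and 2214 to 3710 FPKM in DZ, or 0.616 to 1.45% and 0.533 to 0.946% of all FPKM, and these ranges overlapped. The highest sum, 5983 FPKM, was that of R3-cKO SFZ 3. In R3-Cntl SFZ cells the mean levels ran from Bgn (1313 ± 213 FPKM, SD, n = 3) and Fmod (857 ± 163) through Ogn (510.0 ± 173), Aspn (168 ± 132), Dcn (139 ± 44.9), Lum (128 ± 44.7), Prelp (123 ± 21.7), Omd (95.9 ± 24.3) and Epyc (48.2 ± 50.5) to Chad (11.8 ± 6.3). Only the steps from Bgn to Fmod, from Fmod to Ogn and from Ogn to Aspn separated ranges that did not overlap, and every later neighbour overlapped the next.

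**Figure D1:**
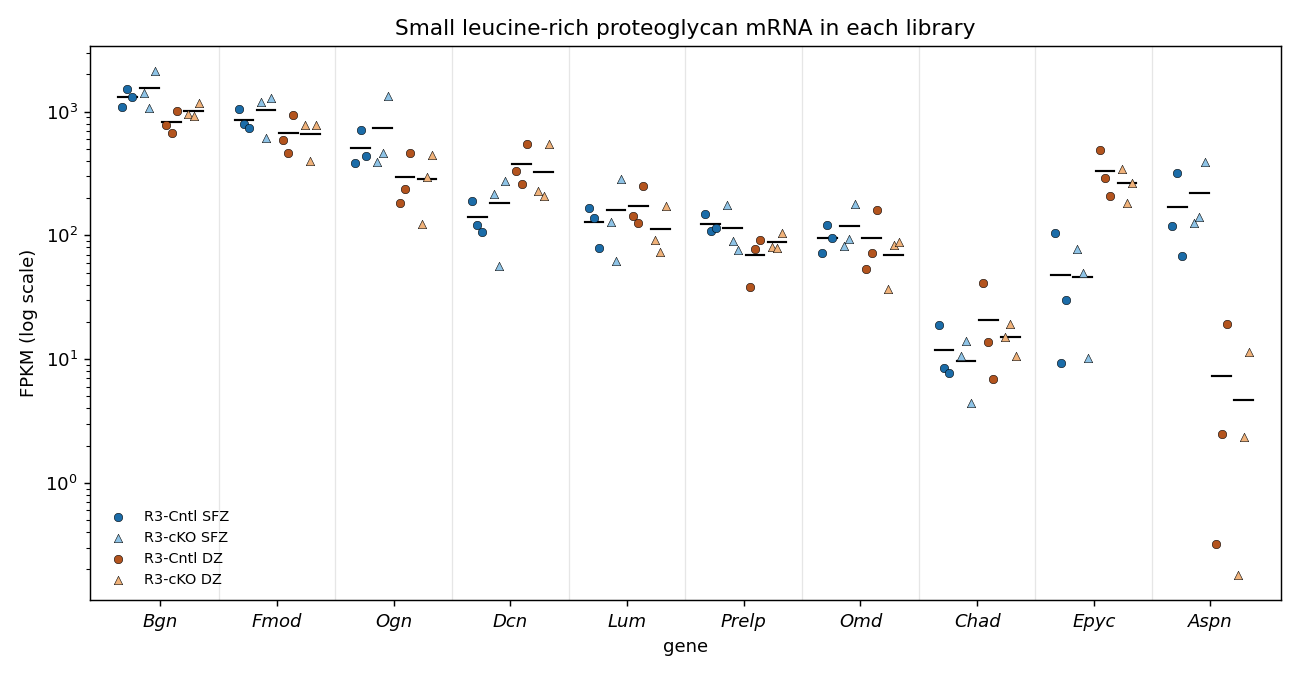
FPKM of the 10 genes on a log axis in the 12 libraries, with circles for R3-Cntl, triangles for R3-cKO, blue for SFZ and brown or orange for DZ, and a black line at the mean of each group of 3. Bgn and Fmod lie at the top in both zones, Epyc lies higher in all 6 DZ libraries and Aspn falls from 68.28 FPKM or more in SFZ to 19.3 FPKM or less in DZ.

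In R3-Cntl DZ cells the order began in the same way, with Bgn at 827 ± 176 FPKM and Fmod at 667 ± 247 FPKM, and then changed. Dcn followed at 379 ± 151 FPKM and Epyc at 329 ± 148 FPKM, ahead of Ogn (294 ± 150), Lum (173 ± 67.4), Omd (95.1 ± 57), Prelp (69 ± 27.4) and Chad (20.8 ± 18.4), and Aspn stood last at 7.36 ± 10.4 FPKM. Every pair of neighbours in that order had overlapping ranges. R3-cKO libraries gave Bgn, Fmod, Ogn and Aspn as the leading genes in SFZ, at 1537 ± 537, 1030.0 ± 365, 733 ± 531 and 220.0 ± 150 FPKM. In R3-cKO DZ cells the leading genes were Bgn, Fmod, Dcn, Ogn and Epyc, at 1014 ± 134, 655 ± 221, 326 ± 189, 287 ± 160 and 265 ± 81.7 FPKM, and Aspn was again last at 4.67 ± 6.02 FPKM.

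Read as composition, the zones differed in 3 genes. Dcn made up 2.13 to 5.7% of the family's FPKM in SFZ and 8.57 to 15.1% in DZ libraries. Epyc made up 0.171 to 3.15% in SFZ and 5.56 to 18.5% in DZ. Aspn made up 2.28 to 8.26% in SFZ and 0.00679 to 0.52% in DZ. For each of these the SFZ and DZ ranges did not overlap, while the shares of the other 7 genes did. By level, ranges did not overlap for Aspn and Epyc, against 11.3% of all genes, and did overlap for Dcn. A share within the family has no such background over all genes. By class, class I held 42.1 to 51% in SFZ and 42 to 50.1% in DZ, class II 30.2 to 42.8% and 28 to 39%, and class III 12.3 to 22.6% and 17.7 to 25.4%. Shares add up to a whole, so a rise in one gene lowers the shares of the rest.

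**Figure D2:**
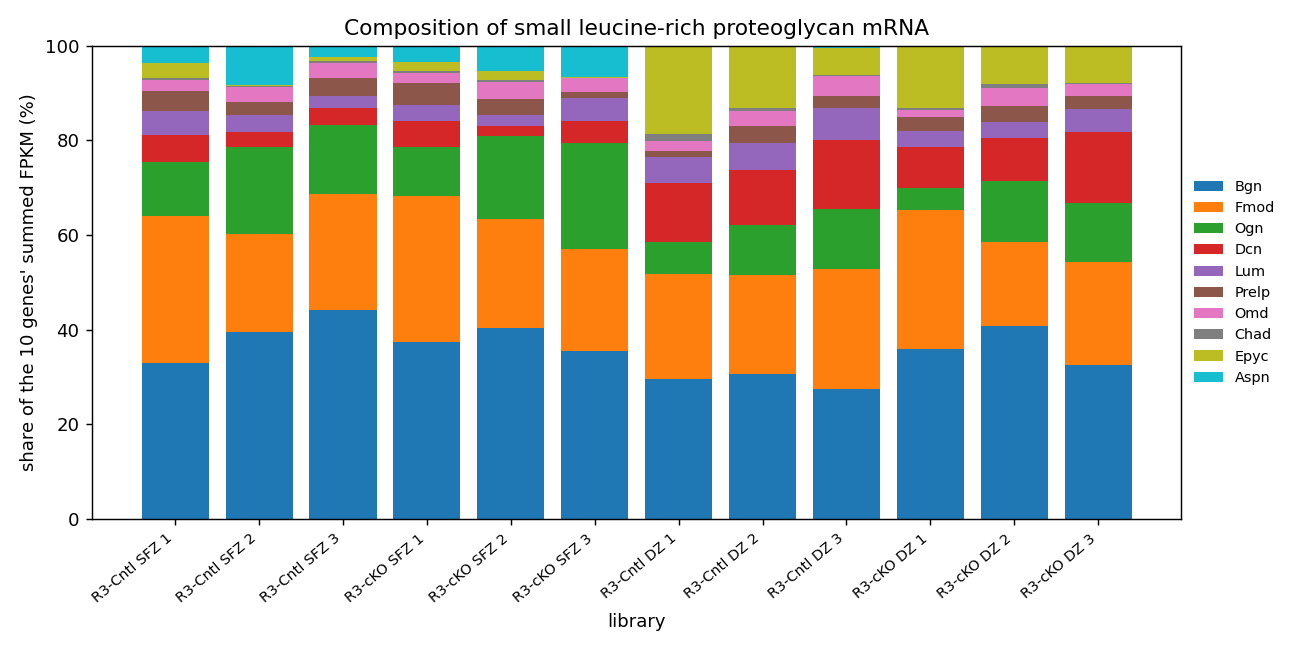
Share of each gene in the summed FPKM of the 10 genes, in percent, as 1 stacked bar for each of the 12 libraries. Aspn fills 2.28 to 8.26% of each SFZ bar and at most 0.52% of each DZ bar, while Epyc fills 5.56 to 18.5% of the DZ bars.

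Of the 10 genes, asporin had the widest difference between zones. In SFZ, R3-Cntl libraries 1 to 3 held 118.8, 318 and 68.28 FPKM of Aspn, and R3-cKO libraries 1 to 3 held 127, 139.7 and 392.05 FPKM. In DZ, the R3-Cntl values were 0.32, 2.46 and 19.3 FPKM, and the R3-cKO values 0.18, 2.33 and 11.51 FPKM. Every SFZ library lay above every DZ library, and within DZ the libraries numbered 1 were lowest and those numbered 3 highest in both genotypes. Replicate numbers were taken to pair the zones in R3-cKO and not in R3-Cntl, from correlations in these same data and not from labels. Within the R3-cKO pairs SFZ exceeded DZ by 705-, 59.9- and 34.1-fold. The lowest DZ values correspond to an estimated 10.1 and 18.8 fragments, so the largest ratios rest on few reads. Over both genotypes the difference was -5.32 on the log2(FPKM + 1) scale (SE 0.74), DZ minus SFZ, with an adjusted p of 0.00129 in limma. The exact permutation test with zones exchanged within genotype gave p = 0.005 (two-sided, n = 6 a zone), the smallest it can give. Here and for the genes below, neither that test nor the unblocked limma fit used the R3-cKO pairs. In bulk RNA, fewer cells of a type and less RNA per cell cannot be told apart.

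Epiphycan showed the reverse pattern. Its SFZ levels, again in libraries 1 to 3, were 105.35, 9.34 and 29.99 FPKM for R3-Cntl and 78.27, 49.73 and 10.23 FPKM for R3-cKO. Its DZ levels were 493, 288 and 206 FPKM for R3-Cntl and 345, 182 and 267 FPKM for R3-cKO. All 6 DZ values were above all 6 SFZ values, and the pair of SFZ libraries with the least Epyc, R3-Cntl SFZ 2 and R3-cKO SFZ 3, were those with the most Aspn. Over both genotypes Epyc was higher in DZ by 3.05 on the log2 scale (SE 0.58, limma adjusted p = 0.00515, exact permutation p = 0.005, n = 6 a zone). Aspn and Epyc passed in all 20 alternatives tried, with adjusted p at most 0.00946 and 0.0141.

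Biglycan was lower in DZ, by a smaller step. SFZ levels of Bgn were 1096, 1523 and 1320.4 FPKM for R3-Cntl and 1423, 1066 and 2122 FPKM for R3-cKO. DZ levels were 785, 675 and 1019 FPKM for R3-Cntl and 949, 925 and 1169 FPKM for R3-cKO. SFZ exceeded DZ in all 3 R3-cKO pairs, by 1.15- to 1.82-fold, and the ranges of the zones overlapped. The difference over both genotypes was -0.61 on the log2 scale (SE 0.17, limma adjusted p = 0.0277, exact permutation p = 0.015, n = 6 a zone). This call held in 11 of 20 alternatives. The adjusted p was 0.063 with no filter on low values. The difference came to -0.45 (adjusted p = 0.118) with median-of-ratios size factors and to -0.53 (0.0789) with quantile normalization. It was -0.43 (0.124) with R3-Cntl SFZ 2 and R3-cKO SFZ 3 left aside, a choice made after seeing the data. Leaving out R3-Cntl SFZ 2 or 3, R3-Cntl DZ 1 or 2, or R3-cKO DZ 1 alone also ended it, with adjusted p of 0.0504 to 0.071.

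Of the 10 genes, 1 was thus called higher in DZ, against 4.3% of all 11765 genes tested, and 2 lower, against 18.9%. In either direction the background was 23.2%, so the count of 3 is near the background. All 10 genes passed the filter on low values. Genes with zones that did not overlap numbered 2 of 10, against 11.3% of all genes. The median difference of the 10 genes was -0.5 on the log2 scale and that of all genes was -0.14. Of all genes, 506 were called higher and 2219 lower in DZ, and this split depends on the scaling, with 1237 higher and 915 lower after quantile normalization and 1050 and 1080 with size factors. These scalings moved the median of all genes to 0.03 and 0. None of the 10 genes changed sign with either.

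Decorin, a class I relative of biglycan, lay on the DZ side, with ratios of DZ to SFZ of 1.06, 3.66 and 1.97 in the R3-cKO pairs. In SFZ, R3-Cntl libraries held 191, 121 and 106 FPKM of Dcn, and R3-cKO libraries 215, 56.45 and 275 FPKM. In DZ, the values were 331, 258 and 549 FPKM for R3-Cntl and 227, 207 and 543 FPKM for R3-cKO. In R3-Cntl the zones did not overlap, and in R3-cKO they did. The difference over both genotypes was 1.19 (SE 0.4) with a limma adjusted p of 0.0507, just short of the threshold, and an exact permutation p of 0.025 (n = 6 a zone). With size factors the adjusted p was 0.0416 and the difference 1.35, and it was also under 0.05 without R3-cKO SFZ 1 (0.0477), R3-cKO SFZ 3 (0.0297) or R3-cKO DZ 2 (0.0425). Blocking on replicate number gave 0.0158. The ratio of Bgn to Dcn was 5.75 to 18.9 in SFZ and 1.86 to 4.48 in DZ libraries, which did not overlap. Among the other ratios taken, those of Lum to Dcn, Ogn to Epyc, and Aspn to Dcn, Omd and Ogn did not overlap either. The ratios of Fmod to Lum, Fmod to Prelp, Ogn to Omd and Epyc to Dcn overlapped between zones. Ratios with Aspn or Epyc hold a gene whose own levels did not overlap between zones. All these ratios are a chosen set of pairs without a background over other pairs of genes, and are a description only.

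Osteoglycin, osteomodulin, fibromodulin and prolargin had lower means in DZ, but overlapped between zones. SFZ levels of Ogn were 382, 706 and 440.35 FPKM for R3-Cntl and 393, 462 and 1345 FPKM for R3-cKO. DZ levels were 181, 236 and 464 FPKM for R3-Cntl and 123, 294 and 443 FPKM for R3-cKO. The difference was -1.08 (SE 0.39, limma adjusted p = 0.0679). In the R3-cKO pairs SFZ exceeded DZ by 1.57- to 3.19-fold. Prelp differed by -0.59 (SE 0.26, adjusted p = 0.12), Fmod by -0.53 (SE 0.25, adjusted p = 0.152) and Omd by -0.46 (SE 0.33, adjusted p = 0.338). In the R3-cKO pairs the ratio of SFZ to DZ was 1.52 to 1.65 for Fmod, 1.12 to 2.23 for Omd and 0.722 to 2.22 for Prelp. Between R3-Cntl libraries of the same number, which were not taken as pairs, it was 0.779 to 1.76, 0.592 to 1.68 and 1.25 to 3.84. None of these 4 genes passed the threshold, although without R3-Cntl DZ 3 Ogn did (-1.28, adjusted p = 0.0409). Blocking on replicate number, which called 33.7% of all genes, let pass Ogn (adjusted p = 0.0135) and Fmod (0.0386). The numbers were taken to pair the zones in R3-cKO but not in R3-Cntl.

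Lumican and chondroadherin overlapped widely between zones. Lum ranged from 62 to 285 FPKM in SFZ and from 73.43 to 250.48 FPKM in DZ, with medians of 134 and 135 FPKM, and its difference was 0.05 (SE 0.38, limma adjusted p = 0.931). Chad was the rarest of the 10 genes in SFZ, at 4.42 to 19.03 FPKM, and ranged from 6.86 to 41.57 FPKM in DZ. Its ratio of DZ to SFZ was 1.38 to 2.4 in the R3-cKO pairs, with a difference of 0.6 (SE 0.4, adjusted p = 0.306, or 0.0278 with the block).

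**Figure D3:**
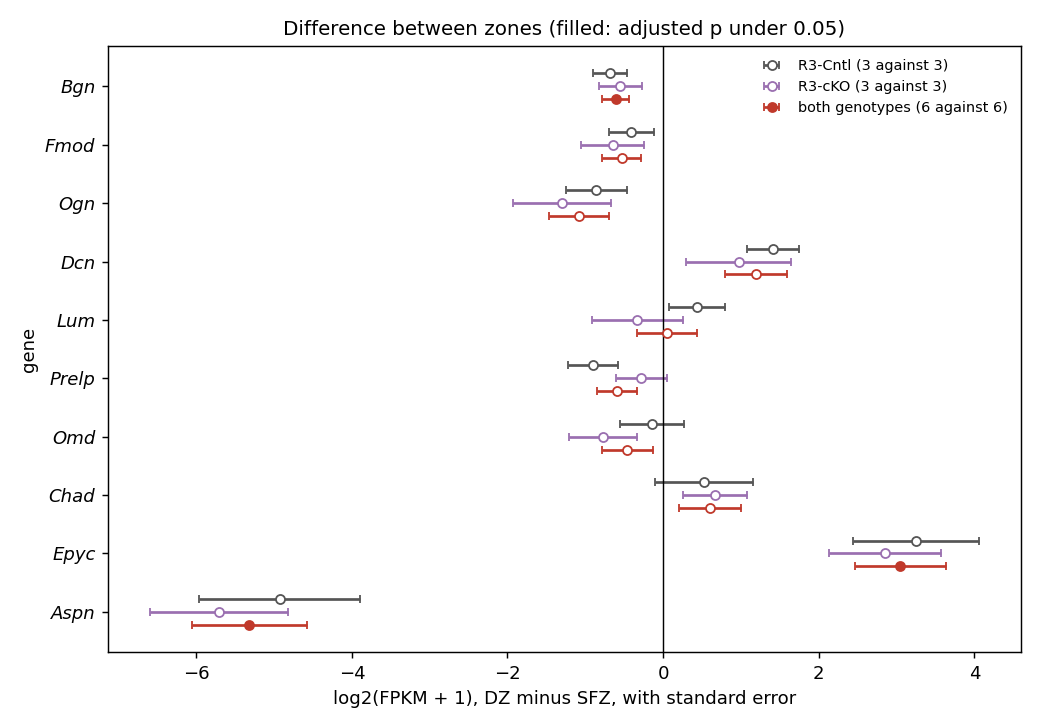
Difference between zones for each gene, DZ minus SFZ, in log2(FPKM + 1) with its standard error, within R3-Cntl, within R3-cKO and over both genotypes, with filled points where the adjusted p was under 0.05. Only the points of Aspn (-5.32), Epyc (3.05) and Bgn (-0.61) over both genotypes are filled.

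Within a single genotype, with 3 libraries a zone, no member passed in limma. In R3-Cntl, 1.24% of 11336 genes were called, and the members nearest the threshold were Aspn (-4.93, SE 1.03, adjusted p = 0.0637), Dcn (1.41, SE 0.33, 0.0753) and Epyc (3.25, SE 0.81, 0.0804). In R3-cKO, 0.0176% of 11336 genes were called, and the nearest were Aspn (-5.71, SE 0.89, adjusted p = 0.0995) and Epyc (2.85, SE 0.72, 0.187). Without R3-Cntl SFZ 1 the count in R3-Cntl was 505 in place of 140, and Dcn (adjusted p = 0.049) and Epyc (0.0323) passed. At an unadjusted p under 0.05 there were 5 members in R3-Cntl, against 27.4% of all genes, and 2 in R3-cKO, against 14.1%. Ranges did not overlap for those same members, against 32.4% of genes in R3-Cntl and 21% in R3-cKO. With all 12 libraries in 1 model, which shares 1 estimate of the spread, Aspn passed in R3-Cntl (adjusted p = 0.0282) and in R3-cKO (0.0344), and Epyc in R3-Cntl (0.0483). That model called 798 of 11336 genes in R3-Cntl and 165 of 11336 in R3-cKO, in place of 140 and 2. Exact permutation tests of 3 against 3 cannot go below 0.1, the value that Aspn and Epyc reached in both genotypes. In R3-cKO the replicate numbers were taken to pair the zones, and with the number as a block Aspn passed (SE 0.36, adjusted p = 0.0284) among 3.11% of genes called. With that block 8 members had an unadjusted p under 0.05, against 30% of all genes. Block and unblocked fits share the same difference and differ in the error.

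Genes that mark other cells moved with the zones beside these results. Of 12 fibroblast and synovium markers, 11 passed the filter and all 11 were called lower in DZ. Cd34, Dpt and Mfap5 passed it only through SFZ libraries and so had to differ, and the other 8 reached 1 FPKM in 3 or more libraries of both zones. In all, 8 of 12 were higher in every SFZ than in any DZ library, against 9.71% of all genes tested. These 8 include Cd34, Dpt and Mfap5, while Pdgfra, Pdpn and Col3a1 overlapped between zones. Postn, a fibroblast matrix gene without overlap, measured 57.27 to 333 FPKM in SFZ and 0.63 to 6.69 FPKM in DZ. Pi16 did not exceed 0.58 FPKM in any library. Tendon and ligament markers summed to 2128 to 5159 FPKM in SFZ and 319 to 1257 FPKM in DZ, with Tnmd, which defines tendon cells, at 14.08 to 85.6 FPKM in SFZ and 0 to 1.14 FPKM in DZ. Tnmd, Thbs4 and Kera passed the filter only through SFZ, and of the other 5 genes in that list 3 were called lower in DZ, Egr1 was not called, and Fibin was called higher (0.93, adjusted p = 0.0419), at 84.98 to 236 FPKM in SFZ and 160 to 382 FPKM in DZ. Both lists hold Col1a1, which made up much of their sums. Within zones, Aspn was highest where the fibroblast sum was highest, in R3-cKO SFZ 3 and R3-Cntl SFZ 2 and in the DZ libraries numbered 3, where the sums were 1319 and 1043 FPKM. All 11 chondrocyte markers tested were called higher in DZ, and Epyc was lowest in R3-Cntl SFZ 2 and R3-cKO SFZ 3, where their sums were lowest at 4440 and 4996 FPKM. Of 10 macrophage markers, 9 were tested, 7 of them having passed the filter only through SFZ, and the other 2, Lyz2 (-2.66) and Cd68 (-2.12), were called lower in DZ. The list summed to 8.05 to 174 FPKM in SFZ and 3.93 to 24.6 FPKM in DZ. Of 7 osteoblast markers, 5 were tested and Bglap (-2.26), Bglap2 (-2.2) and Col1a1 were called lower, while Sp7 (0.24) and Ibsp (0.75) were not called. The part of these cells in the zone differences was not tested. With R3-Cntl SFZ 2 and R3-cKO SFZ 3 left aside, Aspn (-4.76, adjusted p = 0.00946) and Epyc (2.22, adjusted p = 0.0095) passed, while 986 genes were called in place of 2725. The SFZ libraries kept had fibroblast sums of 2444 to 2834 FPKM, against 98.3 to 1319 FPKM in DZ. That fit thus keeps the difference in those markers.

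**Figure D4:**
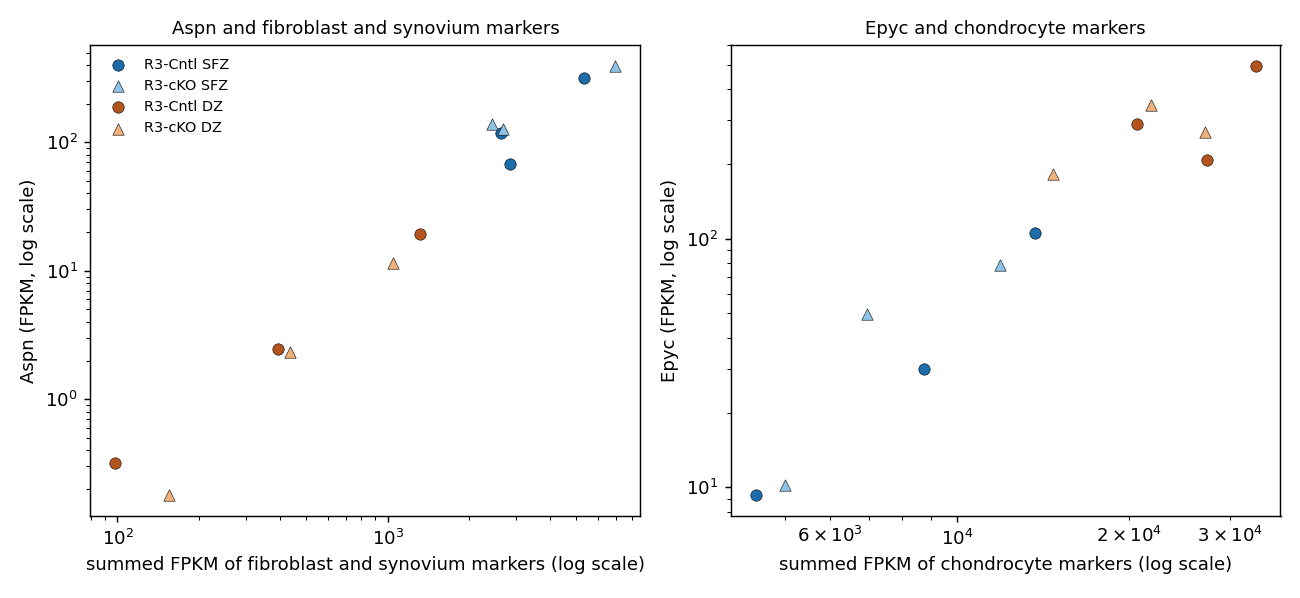
Left, Aspn against the summed FPKM of 12 fibroblast and synovium markers, and right, Epyc against that of 11 chondrocyte markers, on log axes, with 1 point for each library coloured by group. Aspn spans 0.18 to 392.05 FPKM as the fibroblast sum spans 98.3 to 6974 FPKM, and Epyc spans 9.34 to 493 FPKM as the chondrocyte sum spans 4440 to 33282 FPKM.

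R3-cKO and R3-Cntl were compared within each zone, which is the comparison the study was built for. In SFZ cells no gene passed in limma (0% of 11537 genes), and 34 genes (0.295%) had an unadjusted p under 0.05, none of them among the 10. That number was 1204 without R3-cKO SFZ 2, 101 without R3-Cntl SFZ 1 and 12 without R3-cKO SFZ 3, with 0 genes called in each case. The differences of the 10 genes ran from -0.27 (Chad, SE 0.48) to 0.47 (Aspn, SE 0.67) on the log2 scale, with a median of 0.16, against -0.01 for all genes. R3-cKO SFZ 3 held the highest value of Dcn, Bgn, Fmod, Lum, Omd, Ogn and Aspn among all SFZ libraries, so that 1 library lifted the mean of 7 members. With R3-Cntl SFZ 2 and R3-cKO SFZ 3 left aside, Dcn went from 0.15 to -0.36, Lum from 0.11 to -0.35 and Fmod from 0.21 to -0.04.

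In DZ cells no gene passed either (0% of 11091 genes), and 404 genes (3.64%) had an unadjusted p under 0.05, again with 0 members among them. That number was 773 without R3-cKO DZ 3, and 222, 239 and 211 without R3-Cntl DZ 1, R3-cKO DZ 1 and R3-cKO DZ 2, again with 0 genes called. Lum showed the widest difference, its R3-Cntl levels being 143, 126 and 250.48 FPKM and its R3-cKO levels 92, 73.43 and 171 FPKM. Each R3-cKO library was below the R3-Cntl library of its number, at 0.642-, 0.582- and 0.684-fold, although the groups overlapped, as they did for all 10 members against 8.03% of genes without overlap. The difference was -0.65 (SE 0.38, limma adjusted p = 0.999, exact permutation p = 0.3, n = 3). The replicate numbers were taken to pair the DZ libraries from correlations in these same data, not from labels. With the number as a block in limma the SE was 0.08 and the unadjusted p 0.00041, but the adjusted p was 0.125. That block raised the count of genes with an unadjusted p under 0.05 to 1830, or 16.5%, with 2 members among them (Lum and Bgn), and left 0 genes called. Bgn was the other member, with each R3-cKO library above its R3-Cntl counterpart by 1.15- to 1.37-fold and a difference of 0.31 (SE 0.2, blocked SE 0.12, blocked adjusted p = 0.295). Prelp went the same way in all 3 pairs, by 1.03- to 2.08-fold, with a difference of 0.43 (SE 0.33, adjusted p = 0.999). Dcn and Aspn were lower in all 3 pairs, with differences of -0.29 (SE 0.44) and -0.31 (SE 1.19). Fmod, Omd, Ogn, Epyc and Chad went both ways among the pairs. The share of all genes that go the same way in all 3 pairs was not computed, so these directions are a description.

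Bgn is X-linked, and Y-linked transcripts differed among the R3-cKO libraries. In SFZ and DZ alike, R3-cKO libraries 2 and 3 were nearly without them, since 4 Y-linked genes there summed to 0.01 to 0.06 FPKM, and in the other 8 libraries to 12.1 to 52.4 FPKM. The part of this difference in any genotype value was not tested.

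**Figure D5:**
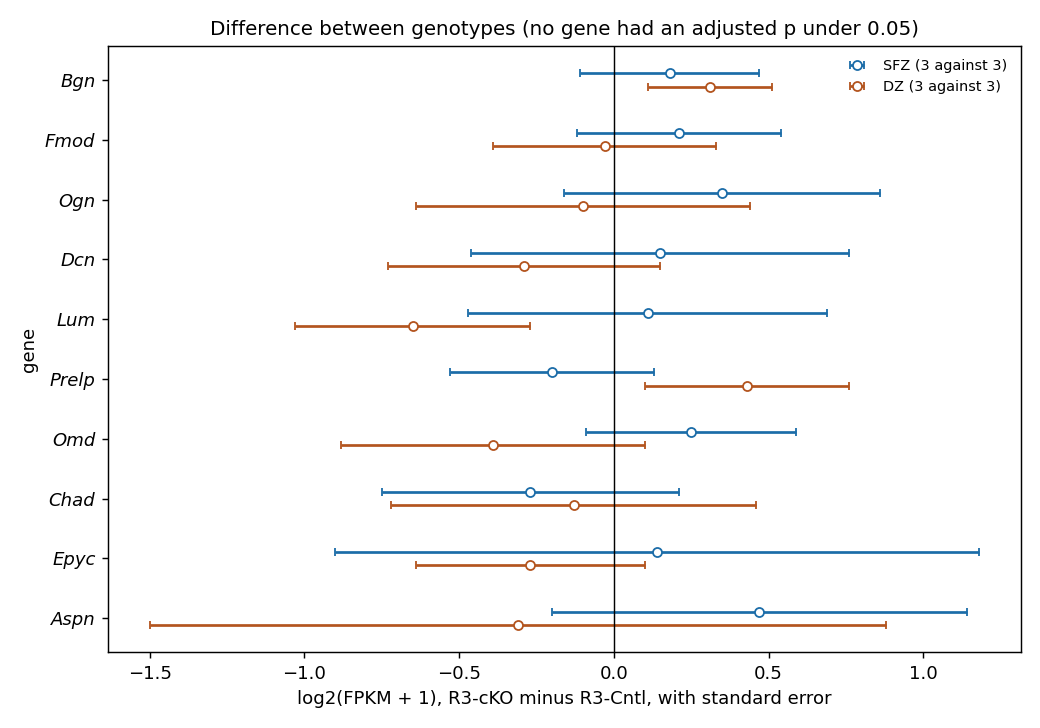
Difference between genotypes for each gene, R3-cKO minus R3-Cntl, in log2(FPKM + 1) with its standard error, in SFZ and in DZ cells. All points are open because no adjusted p was under 0.05, and they lie between -0.65 (Lum, DZ) and 0.47 (Aspn, SFZ).

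Whether the zones differed in their response to genotype was examined with an interaction term over all 12 libraries. No gene passed in limma (0% of 11765 genes), 99 (0.841%) had an unadjusted p under 0.05, and no member was among those. That number was 714 without R3-cKO SFZ 2, 421 without R3-Cntl SFZ 1, 329 without R3-cKO DZ 3 and 949 with the block, ran from 36 to 174 without any other single library, and came with 0 genes called throughout. The members ran from -0.78 (Aspn, SE 1.52) to 0.62 (Prelp, SE 0.5). The members with Runx letters before their start, Fmod, Lum, Ogn and Chad, had genotype differences of 0.21, 0.11, 0.35 and -0.27 in SFZ and of -0.03, -0.65, -0.1 and -0.13 in DZ, all short of the threshold. The standard errors of the 10 genotype differences were 0.2 to 1.19 in DZ and 0.29 to 1.04 in SFZ.

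The rest of the family and the genes that work with it give the setting, in the comparison of zones over both genotypes. In that comparison 4.3% of all genes were called higher and 18.9% lower in DZ, which can be set beside each count that follows. The lists were chosen with earlier results of these data known. The shares over all genes also include genes that passed the filter through 1 zone only. The counts are therefore a description. Of 8 other family genes, 6 passed the filter, 5 of them in both zones, and of these 5 Podn (podocan, -2.01, SE 0.52) and Ecm2 (-1.82, SE 0.28), the neighbour of Aspn, were called lower in DZ. Kera (keratocan), which lies between Lum and Epyc, passed the filter only through 3 SFZ libraries, so its call is no result. Kera was at 0.17 to 7.45 FPKM in SFZ and 0 to 0.06 FPKM in DZ. Chadl, a relative of Chad, differed by 1.26 (SE 0.5, limma adjusted p = 0.0881). Along chromosome 10, Epyc (3.05) was called higher, while Dcn (1.19) and Lum (0.05) were not called. Along chromosome 13, Ecm2 (-1.82) and Aspn (-5.32) were called lower, while Omd (-0.46) and Ogn (-1.08) were not called.

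Of 16 collagens that these proteins bind or lie beside, 15 passed the filter in both zones, and of these 4 were called higher and 7 lower in DZ. Col14a1, at 6.07 to 69 FPKM in SFZ and 0.13 to 2.5 FPKM in DZ, passed only through SFZ, so its call is no result. The 4 were fibril collagens of cartilage, Col2a1 (1.57, SE 0.3), Col9a1 (1.66, SE 0.37), Col11a1 (1.07, SE 0.19) and Col11a2 (1.24, SE 0.32). The lower group held Col1a1 (-3.73, SE 0.8), Col1a2 (-3.2, SE 0.61) and Col3a1 (-2.34, SE 0.58), the fibril collagens of tendon, skin and synovium, and Col12a1 (-1.72, SE 0.52), which coats such fibrils. Col5a1, Col6a1 and Col6a2 were also lower, by 0.4 to 1.11 on the log2 scale.

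Chondroitin and dermatan sulfate chains are built by xylosyl-, galactosyl- and glucuronosyltransferases and then sulfated. Of 21 such genes, 20 were tested, 8 were called higher and 4 lower in DZ, and their median was 0.02. The higher group held chain starters and polymerases, Xylt1 (1.2, SE 0.21), Fam20b (0.75, SE 0.12), B4galt7, B3gat3, Csgalnact1 (0.92, SE 0.15), Chsy1 and Chsy3, and the 4-O-sulfotransferase Chst11 (1.86, SE 0.33). The lower group held the epimerase Dsel (-0.57, SE 0.1) and the sulfotransferases Chst14 (-0.47, SE 0.13), Ust (-0.86, SE 0.16) and Chst15 (-0.44, SE 0.15). Dse, the other epimerase, was more abundant, at 25.49 to 45.43 FPKM against 5.08 to 11.42 FPKM for Dsel, and was not called (-0.13, SE 0.11, adjusted p = 0.427). Of 9 genes for keratan sulfate chains and tyrosine sulfation, 7 were tested, and all but Chst1, which passed only through SFZ, passed the filter in both zones. Of those 6, 4 were called lower, B4galt1 (-0.79, SE 0.17), Chst2 (-0.91, SE 0.29), Tpst1 (-0.6, SE 0.16) and B3gnt2 (-0.32, SE 0.11), and 0 were called higher. Of 12 genes for proteases and their helpers, 10 were tested, and all but Adamts4 and Mmp3, which passed only through SFZ, passed the filter in both zones. Of those 8, 3 were called lower, Adamts5 (-2.37, SE 0.32), Mmp14 (-1.57, SE 0.34) and Pcolce (-1.22, SE 0.37), and 0 were called higher. All genes called in these lists had an adjusted p under 0.05 in limma. With quantile normalization and also with size factors, Col6a1, Col6a2, Col12a1, Chst2, Chst14, Chst15, Tpst1, B3gnt2 and Pcolce lost it, and Col2a1 lost it with quantile normalization (0.158). With no filter Col2a1 (0.156), Col6a1, Col6a2, Col12a1, Chst2, Chst15, B3gnt2 and Pcolce (0.0522 to 0.0632) lost it. B3gnt2, Chst2 and Chst15 lost it with 5 added, B3gnt2 also with 0.1 added and with the 10 FPKM mean, and Chst15 with the block (0.0729). With R3-Cntl SFZ 2 and R3-cKO SFZ 3 left aside, the same 9 genes and Podn, Col1a1, Col3a1, Col11a2, B4galt7 and Chsy3 lost it, with adjusted p of 0.0566 to 0.213. Their differences then were -3.36 for Col1a1, -1.98 for Col3a1, -1.61 for Podn and 0.89 for Col11a2, with 10 libraries in place of 12. Leaving out 1 library ended the call of 10 genes, for 9 of the libraries in B3gnt2 and Chst15, 8 in B4galt7, Col6a1 and Col6a2, 7 in Chst2, Col12a1 and Pcolce, and 3 in Chst14 and Tpst1.

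The genes whose pattern was most like each member, by Pearson correlation of log2(FPKM + 1) over the 12 libraries among genes averaging 10 FPKM or more, are given as a description, since the libraries share zones and genotypes. For Epyc they were Acan (0.99), Fam20b (0.986) and Proser2 (0.983), all higher in DZ. Acan encodes aggrecan, the large proteoglycan of cartilage, and Fam20b the xylose kinase of chain synthesis. For Aspn they were Col8a1 (0.991), Col1a2 (0.979) and Ifitm2 (0.978), with mean Col8a1 at 50.8 FPKM in SFZ and 3.61 FPKM in DZ. For Dcn they were Gprc5c (0.982), C4b (0.952) and Ucma (0.946), a cartilage matrix gene at 274 FPKM in SFZ and 870.0 FPKM in DZ. Of the members, Omd alone had another member among its 3, Ogn (0.913), after Erp44 (0.953) and Fndc3a (0.92). For the others the closest genes were Fuca1 for Bgn (0.966), Cdk5 for Fmod (0.963), 1190002N15Rik for Lum (0.961), Spred1 for Prelp (0.898), Erp29 for Ogn (0.96) and Dap3 for Chad (0.932).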

How the data were processed

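RNA from 12 libraries was sequenced by the authors as 100-bp paired-end reads and mapped to mm9. The submitters' processing notes name Bowtie 0.12.2, and the counter is not given in the sources used here. The deposited FPKM values, scaled between libraries by TMM, are linear, and the unit was inferred, since the lowest values of 1732 rare genes fell with transcript length (Spearman rho -0.82). The study's methods name quantile normalization, here an alternative. The depth is an estimate from the smallest values, and 0 columns were unmapped.

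Differences were fitted in R 4.3.3 with limma 3.58.1, with an empirical Bayes trend, on log2(FPKM + 1), keeping each gene that reached 1 FPKM in 3 or more libraries of the fit. The added 1 understates the change of rare genes. Zones were compared within each genotype and over both with genotype as a term, genotypes within each zone, and the interaction over 12 libraries. P-values were adjusted over all genes tested by the Benjamini-Hochberg method. Single genes were also tested by exact two-sided permutation. The script was tested on simulated data. Alternatives were no filter, a mean of at least 10 FPKM, an added 0.1 or 5, quantile normalization, median-of-ratios size factors, a block for replicate number, 1 model of all 12 libraries, and each library left out.

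Libraries come from individual littermates according to the study, and whether a number marks 1 mouse in both zones is not stated. Numbers were taken to pair libraries where each same-numbered correlation of deviations from group means exceeded 0.1. These were 0.65, 0.78 and 0.69 for genotypes in DZ, and 0.42, 0.78 and 0.65 for zones in R3-cKO, but 0.79, -0.09 and -0.42 for genotypes in SFZ and 0.58, 0.11 and -0.15 for zones in R3-Cntl.

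All 10 members are named, with the genes of fixed lists that passed the threshold or moved most, marker genes, and the 3 genes most like each member. The members and lists were chosen with earlier results of these data known. Sequences were read from the mm9 genome with GENCODE vM1. Snorc and Hbb-b1 were not analysed here.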

Additional observations from a re-analysis of the deposited data

How the results depend on the processing

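Counts of genes called between zones depended on the setting. In R3-Cntl, 140 genes became 0 with no filter, 8 with a minimum mean of 10 FPKM, 88 and 29 with 0.1 and 5 added, 1 with quantile normalization, 17 with size factors, 831 with the replicate block and 798 with all 12 libraries in 1 model, and 0 to 505 with a library left out. In R3-cKO, 2 became 5 with no filter, 0 with the 10 FPKM mean, 1 with either added value, 352 with the block, 165 in 1 model, and 0 to 5 with a library left out. Over both genotypes, 2725 became 1162 with the 10 FPKM mean, where fewer genes were tested, 986 with R3-Cntl SFZ 2 and R3-cKO SFZ 3 left aside (chosen after seeing the data), and 1624 to 2899 with a library left out. Between genotypes in DZ, no filter gave 1. The cause was not tested.

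The pooled zone fit with a replicate block called 3965 genes (33.7%) and 7 members, adding Dcn (adjusted p = 0.0158), Ogn (0.0135), Fmod (0.0386) and Chad (0.0278), and in R3-Cntl the block called Epyc (0.0395). The numbers were taken to pair the zones in R3-cKO and the genotypes in DZ, and elsewhere the libraries share only a number. The block also called Aspn in R3-cKO, and beyond these 6 calls it changed none of the members'.

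Signs changed for differences short of the threshold. Omd in R3-Cntl was 0.06 with size factors, and Fmod between genotypes in DZ was 0.04 with quantile normalization. With both SFZ libraries left aside, genotype differences in SFZ were -0.36 (Dcn), -0.04 (Fmod), -0.35 (Lum) and 0.00 (Chad), and interactions were 0.07 (Dcn), 0.01 (Fmod) and -0.13 (Chad). With a library left out, zone differences spanned -0.59 to 0.19 (Omd) and -0.14 to 1.08 (Chad) in R3-Cntl, -0.86 to 0.23 (Lum) and -0.52 to 0.08 (Prelp) in R3-cKO, and -0.14 to 0.34 (Lum) over both. Genotype differences in SFZ spanned -0.29 to 0.84 (Dcn), -0.08 to 0.42 (Bgn), -0.44 to 0.65 (Lum), -0.56 to 0.04 (Prelp), -0.1 to 0.46 (Omd), -0.21 to 0.68 (Ogn), -0.69 to 0.99 (Epyc), -0.04 to 1.08 (Aspn) and -0.58 to 0.16 (Chad). In DZ they spanned -0.73 to 0.01 (Dcn), -0.26 to 0.29 (Fmod), -0.72 to 0.06 (Omd), -0.5 to 0.41 (Ogn), -0.56 to 0.07 (Epyc), -1.19 to 0.78 (Aspn) and -0.69 to 0.53 (Chad). Interactions spanned -0.11 to 0.39 (Bgn), -0.58 to 0.09 (Fmod), -0.85 to 0.11 (Ogn), -1.26 to 0.42 (Epyc), -1.67 to 0.3 (Aspn) and -0.42 to 0.8 (Chad).

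With 3 libraries a group, limma p-values set a difference against the spread between these libraries, moderated over all genes. Depth is an estimate, and it limits Aspn most, in the DZ libraries numbered 1.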

Other observations

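Members also varied together among libraries of a group. With the mean of each group removed, the Pearson correlation over 12 libraries, which share zones and genotypes, was 0.96 between Omd and Ogn, 0.89 between Aspn and each of Omd and Ogn, 0.93 between Dcn and Lum, 0.85 between Dcn and Fmod and -0.75 between Epyc and Ogn. Before the means were removed, Dcn and Lum stood at 0.71 and Dcn and Fmod at 0.17. Measured in the same way, Aspn, Omd and Ogn stood at 0.96, 0.93 and 0.89 with the fibroblast and synovium sum at 0.96, 0.93 and 0.95 with the tendon and ligament sum and at 0.97, 0.93 and 0.9 with the osteoblast sum. These 3 lists share Col1a1, which made up much of each sum, and the part of those cells was not tested. The correlations between members are descriptions over 45 pairs and carry no test.

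Podnl1 was at 0.56 to 4.9 FPKM and Tsku at 10.1 to 15.55 FPKM over all 12 libraries, and Optc and Nyx, family members known from the eye, stayed at or under 0.77 and 0.15 FPKM. Skeletal muscle markers summed to 133 FPKM in R3-Cntl SFZ 2 and to at most 22.4 FPKM in the other libraries, and endothelial, erythroid and keratinocyte markers to at most 6.44, 0.25 and 2.2 FPKM.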
